A study of Arabidopsis thaliana with 24 samples.

Results

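PR1, PR2 and PR5 are the classical transcript markers of salicylic acid (SA) defence in Arabidopsis thaliana. They were followed as 3 probe sets, chosen by identifier, of the 22810 on the Affymetrix ATH1 array, those of PR1 (AT2G14610, 266385_at), PR2 (AT3G57260, listed in RefSeq as BGL2, 251625_at) and PR5 (AT1G75040, 259925_at). The gene assignment came with that choice of identifiers. The platform annotation used here lists 0 of the 3 probe sets, while all 3 loci are in the RefSeq gene table. No sequence of these genes was at hand, so none is shown.

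The 24 arrays held RNA from mature leaves of wild type Columbia-0 and of the tbf1 mutant, whose allele the labels do not name, after 3 weeks of growth on soil at 22 °C with 16 h of light and 8 h of dark. In each genotype, 1 group was sprayed with 1 mM SA and 1 with water, both sampled at 6 h. Another was infiltrated with 10 µM elf18 and another with water, both sampled at 2 h. Each of the 8 groups had 3 arrays, called biological replicates. Nothing more says how separate their plants were, and the p-values cover only array-to-array spread within groups. The TBF1 transcript, which would check the mutant labels, is not analysed here, and levels relative to a median cannot show whether a leaf marker is present or absent.

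SA accumulates in leaves attacked by pathogens and acts through the coactivator NPR1 and TGA transcription factors to switch on a set of secreted proteins. PR1 is a small protein of the CAP family that binds sterols, PR2 is a beta-1,3-glucanase that cuts glucan of fungal walls, and PR5 is a thaumatin-like protein. All 3 pass through the endoplasmic reticulum (ER) on their way out of the cell. The transcription factor TBF1 resembles heat shock factors, acts with NPR1 and binds promoters of ER folding and secretion genes, and elf18, derived from the elongation factor Tu of bacteria, starts pattern-triggered immunity through the receptor EFR.

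Values are log2 levels relative to the median of each probe set over the 24 arrays, so 1 unit is a 2-fold change on the assumption that the deposited log base is 2. They compare arrays within a probe set and say nothing of whether PR1 is more abundant than PR2. The 3 genes had similar spans. From the highest to the lowest group mean the distance was 6.12 for PR1, 4.87 for PR2 and 5.72 for PR5. For all 3 the highest group was wild type after SA.

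**Figure D1:**
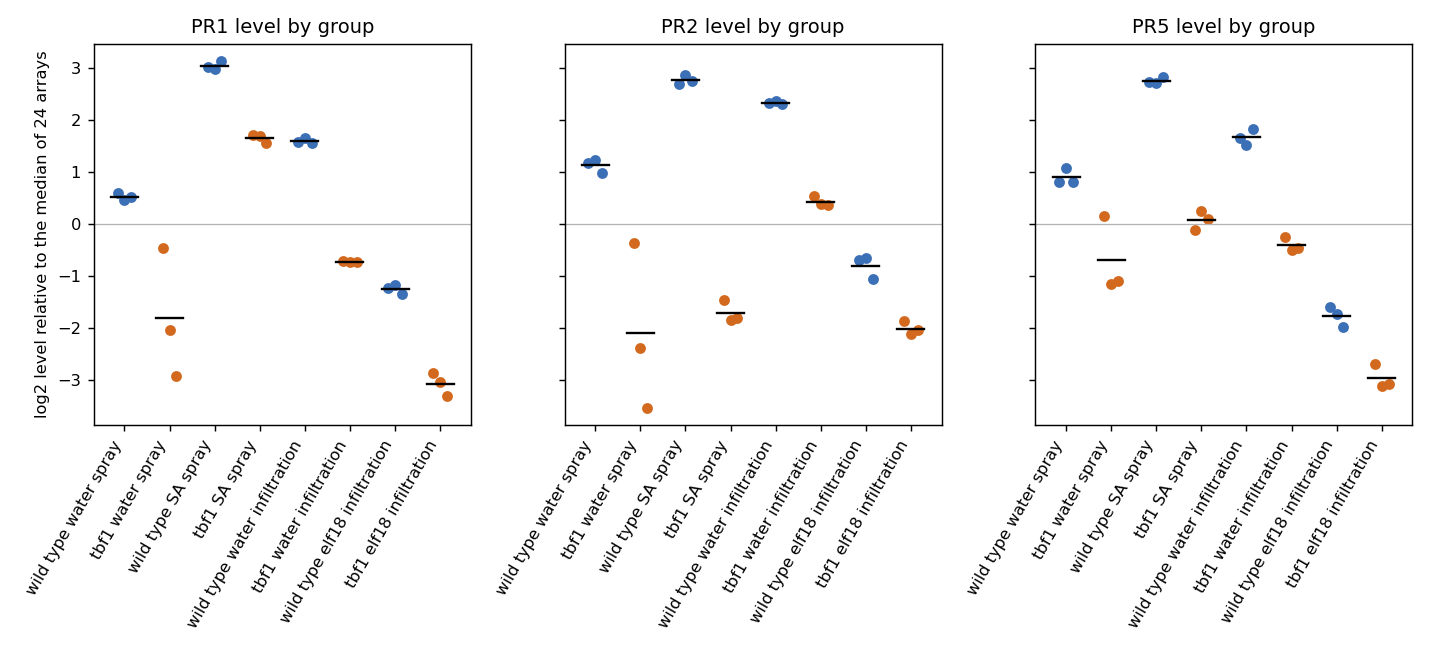
Log2 level of PR1, PR2 and PR5 (vertical axis, relative to the median of the 24 arrays) in the 8 groups (horizontal axis), with a point for each array and a bar for the mean of 3 arrays, wild type in blue and tbf1 in orange. Wild type arrays lie above tbf1 arrays under every treatment, and the tbf1 water spray arrays are the most scattered.

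The order of the PR1 levels ran from 3.05 ± 0.08 (mean ± SD, n = 3 in this and each other group) in wild type after SA to 1.66 ± 0.08 in tbf1 after SA and 1.60 ± 0.05 in wild type after water infiltration. Wild type after water spray followed at 0.53 ± 0.07. Below the median lay tbf1 water infiltration at -0.73 ± 0.02, wild type elf18 at -1.24 ± 0.09, tbf1 water spray at -1.81 ± 1.24 and tbf1 elf18 at -3.07 ± 0.22. The ranges of neighbours in this order overlapped at 3 places: between tbf1 SA and wild type water infiltration, and on both sides of tbf1 water spray.

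PR2 was at 2.78 ± 0.09 in wild type after SA, 2.34 ± 0.03 after water infiltration, 1.14 ± 0.14 after water spray and -0.80 ± 0.22 after elf18. In tbf1 it was at 0.43 ± 0.10 after water infiltration, -1.70 ± 0.21 after SA, -2.01 ± 0.12 after elf18 and -2.09 ± 1.60 after water spray. For PR2, tbf1 plants sprayed with SA thus stood near the bottom of the 8 groups, whereas for PR1 the same arrays stood next to the top. Among neighbours only the pair tbf1 elf18 and tbf1 water spray had overlapping ranges.

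PR5 was at 2.76 ± 0.06 in wild type after SA, 1.67 ± 0.16 after water infiltration, 0.90 ± 0.16 after water spray and -1.76 ± 0.19 after elf18. In tbf1 it was at 0.08 ± 0.18 after SA, -0.40 ± 0.14 after water infiltration, -0.69 ± 0.74 after water spray and -2.96 ± 0.24 after elf18. Here tbf1 water infiltration and tbf1 water spray were the neighbours whose ranges overlapped.

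The tbf1 water spray arrays need to be set apart before any test. For replicates 1, 2 and 3, PR1 was at -0.46, -2.04 and -2.92, PR2 at -0.36, -2.38 and -3.53, and PR5 at 0.16, -1.14 and -1.10. Replicate 1 was the highest for all 3 genes. In the other 7 groups the largest SD was 0.22 for PR1, 0.22 for PR2 and 0.24 for PR5. Since 1 spread per probe set served all groups, standard errors carry the spread of this group: the pooled residual SD was 0.45 for PR1, 0.58 for PR2 and 0.31 for PR5 over all arrays, and 0.11, 0.15 and 0.17 without these 3 arrays. Against fits of only the arrays compared, standard errors of these genes were smaller in comparisons with this group and larger in the others. Intervals and p-values of comparisons with this group are therefore too narrow and too low.

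A 5' minus 3' index, used here as a stand-in for RNA quality, also differed between groups. It is the mean log2 difference between 5' and 3' control probe sets over 6 pairs for actin, GAPDH and ubiquitin. As each probe set was centred on its median, lower values mean less signal from the 5' end only relative to other arrays. RNA quality itself was not measured. Group means ran from -1.67 in tbf1 water spray to 0.84 in tbf1 water infiltration, while within a group the index spanned 0.50 at most. In tbf1 water spray it was -1.34 in replicate 1, -1.83 in replicate 2 and -1.83 in replicate 3, so the array with the highest PR levels also had the highest index of its group.

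SA raised all 3 genes in wild type leaves within 6 h. PR1 went from 0.60, 0.46 and 0.53 after water to 3.03, 2.99 and 3.13 after SA. This is a rise of 2.52 ± 0.31 (log2, SE, 3 arrays against 3), or 5.72-fold with a 95% confidence interval of 3.67-fold to 8.94-fold (adjusted p = 3.68e-07, limma). PR5 rose by 1.86 ± 0.22, or 3.63-fold (adjusted p = 1.59e-07), with water values of 0.81, 1.09 and 0.80 and SA values of 2.74, 2.71 and 2.83. PR2 rose by 1.64 ± 0.40, or 3.12-fold (adjusted p = 0.00191), from 1.18, 1.24 and 0.98 to 2.70, 2.88 and 2.76. The groups did not overlap for any of the 3 genes. Over all probe sets 15.1% were called higher in this comparison at an adjusted p below 0.05, and 22% had a range of SA values wholly above that of water. The rise of PR1 was the 114th largest of 22746, that of PR5 the 310th and that of PR2 the 430th. The index differed by -0.30 between these groups, and with it as a covariate all 3 were still called, at 3.16, 2.5 and 2.32 for PR1, PR2 and PR5.

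In tbf1 the 3 genes parted. PR1 rose by 3.47 ± 0.31 (adjusted p = 2.24e-09, 11.1-fold, 95% confidence interval 7.09-fold to 17.3-fold) and reached 1.72, 1.70 and 1.57 after SA. These arrays lay close together and above all 3 water arrays. The rise was the 6th largest of all probe sets. With only the arrays of these groups fitted, its SE was 0.48 (adjusted p = 0.000727, limma). PR5 rose by 0.77 ± 0.22 (adjusted p = 0.00659), to -0.11, 0.24 and 0.11, but water replicate 1, at 0.16, lay among the SA arrays. PR2 was not called, with a difference of 0.39 ± 0.40 (adjusted p = 0.472, 95% confidence interval -0.44 to 1.21). Its SA values of -1.46, -1.85 and -1.81 lay within the range of the water arrays. In this comparison 19.6% of probe sets were called higher and 19.2% had ranges wholly above.

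The wide water group limits what can be said of PR2 and PR5 in tbf1. Without water replicate 1 the PR2 change was 1.25 (adjusted p = 2.96e-05), and without water replicate 3 it was -0.33 (adjusted p = 0.417). For PR5 the call was lost without water replicate 2 (0.55, adjusted p = 0.0607) or replicate 3 (0.57, adjusted p = 0.0548), with only the 6 arrays of these groups fitted (adjusted p = 0.104) and after quantile normalization (0.44, adjusted p = 0.0621). PR1 stayed called without any 1 of the 6 arrays, at 2.91 to 4.14.

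The SA responses of the genotypes were compared by subtracting the wild type change from the tbf1 change. PR5 responded less in tbf1, with a difference of -1.09 ± 0.31 (adjusted p = 0.00899). The difference was -1.26 ± 0.56 for PR2 (adjusted p = 0.1, 95% confidence interval -2.42 to -0.09) and 0.95 ± 0.44 for PR1 (adjusted p = 0.112, 95% confidence interval 0.04 to 1.86). Neither passed the threshold as deposited, and 12.7% of all probe sets were called lower. Single tbf1 water spray arrays moved both. Without replicate 1 the PR1 difference was 1.62 (adjusted p = 2.89e-06) and that of PR2 -0.39 (adjusted p = 0.301). Without replicate 3 they were 0.40 (adjusted p = 0.396) and -1.98 (adjusted p = 0.000588), so each call came with a different array left out.

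**Figure D2:**
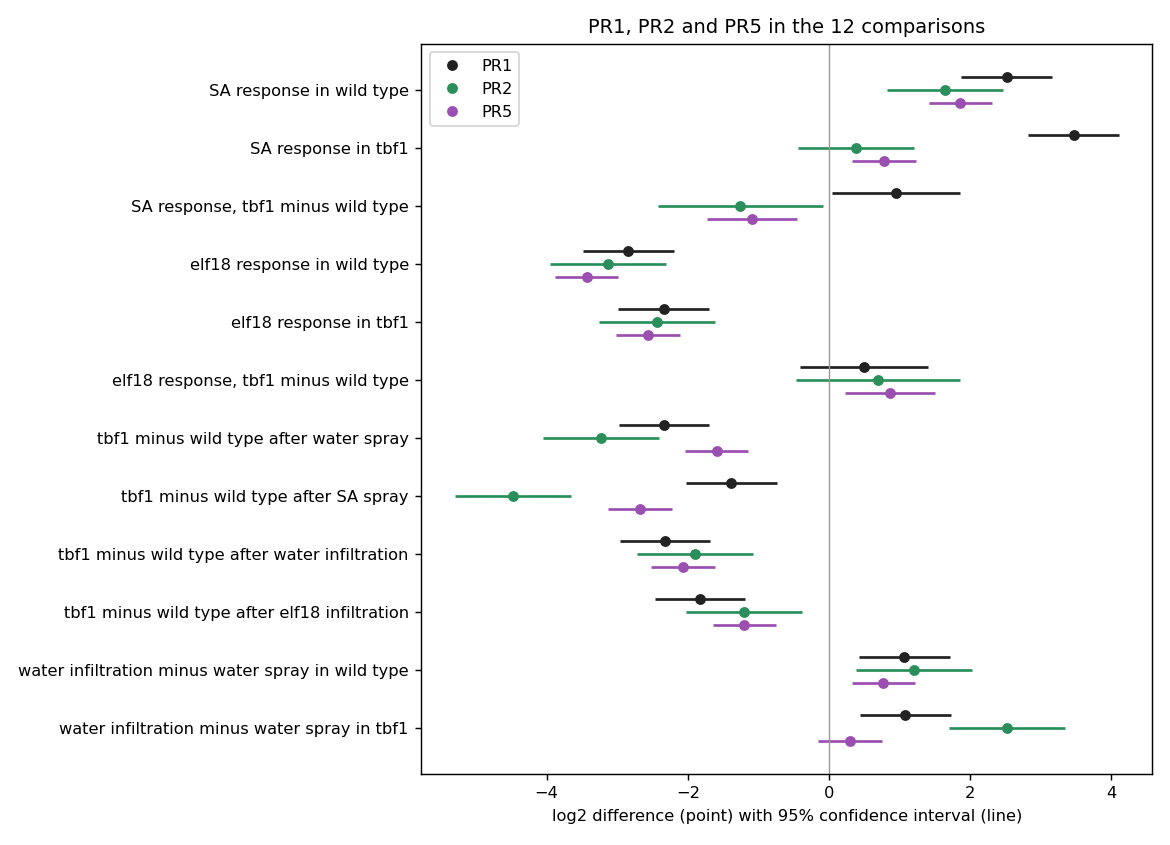
Log2 differences (points) with 95% confidence intervals (lines) on the horizontal axis for PR1, PR2 and PR5 in the 12 comparisons, from the fit over 24 arrays. After SA in tbf1 the PR1 interval, centred at 3.47, lies clear of those of PR2 and PR5, while the 3 genes lie close together for elf18.

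How the 3 genes moved against each other can be read within an array, which removes only what shifts both genes alike on that array. The fitted slopes on the index were 2.17 ± 0.51, 2.89 ± 0.63 and 1.55 ± 0.35 log2 units per unit (SE) for PR1, PR2 and PR5. Without the 3 tbf1 water spray arrays they were 0.24 ± 0.30, 0.50 ± 0.35 and 0.48 ± 0.40. Whether the slopes differ between genes was not tested, so a difference in the index between groups may remain in these values. This reading was chosen after the values had been seen and carries no p-value, since an exact permutation test of 3 against 3 arrays cannot go below 0.1. PR1 minus PR2 was 0.29 ± 0.36 (SD, n = 3) in tbf1 after water spray and 3.37 ± 0.19 after SA, a change of 3.08 ± 0.23 (SE from the spread of these 6 arrays). In wild type the same quantity went from -0.60 ± 0.17 to 0.27 ± 0.14, a change of 0.88 ± 0.13. The tbf1 SA arrays, at 3.18, 3.55 and 3.37, lay far above all other arrays of the series, of which the highest was at 0.62.

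PR1 minus PR5 rose as well after SA in tbf1, from -1.11 ± 0.63 to 1.58 ± 0.21, against -0.37 ± 0.22 to 0.29 ± 0.01 in wild type. PR2 minus PR5 changed by -0.39 ± 0.60 after SA in tbf1 and by -0.22 ± 0.10 in wild type, with overlapping groups in both. PR2 was nevertheless low relative to PR5 in both tbf1 spray groups, at -1.40 ± 0.97 and -1.79 ± 0.39, while the 6 other groups had means of 0.02 to 0.96. The same tbf1 spray groups had the lowest index, at -1.67 after water and -1.53 after SA, and its part in this contrast was not tested. After elf18 the largest of these changes was 0.59 ± 0.14, for PR1 minus PR5 in wild type.

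**Figure D3:**
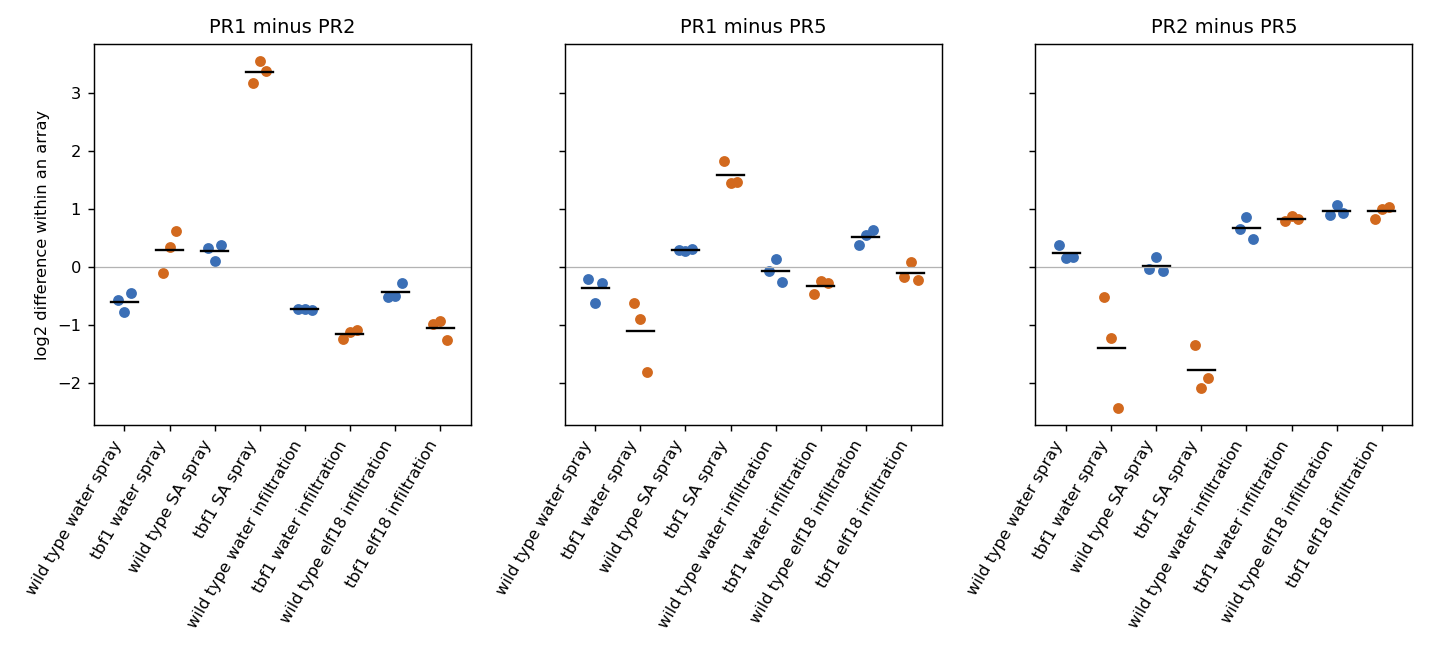
Log2 differences between 2 of the genes within each array (vertical axis) by group (horizontal axis), with a point for each array and a bar for the mean of 3, wild type in blue and tbf1 in orange. PR1 minus PR2 stands at 3.37 on average in tbf1 after SA and between -1.16 and 0.29 in the other groups.

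Infiltration of elf18 was followed after 2 h by lower levels of all 3 genes in both genotypes, relative to water infiltration. In wild type PR5 fell by 3.43 ± 0.22 (log2, SE, 10.8-fold, adjusted p = 2.03e-12), from 1.66, 1.52 and 1.83 to -1.60, -1.72 and -1.98. PR2 fell by 3.14 ± 0.40 (8.80-fold, adjusted p = 3.23e-07), from 2.32, 2.38 and 2.31 to -0.69, -0.66 and -1.05. PR1 fell by 2.84 ± 0.31 (7.17-fold, adjusted p = 2.88e-08), from 1.59, 1.65 and 1.56 to -1.22, -1.17 and -1.34. All elf18 arrays lay below all water arrays, by more than 2 log2 units. Of all probe sets 26.9% were called lower and 28.1% had ranges wholly below. PR5, PR2 and PR1 had the 16th, 25th and 54th largest falls of the 22746.

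In tbf1 the elf18 arrays also lay below all water arrays. PR5 went from -0.24, -0.49 and -0.46 to -2.69, -3.12 and -3.08, so that it fell by 2.57 ± 0.22 (log2, SE, adjusted p = 7.65e-10). PR2 fell by 2.44 ± 0.40 (adjusted p = 1.92e-05), from 0.55, 0.39 and 0.36 to -1.87, -2.11 and -2.04, and PR1 by 2.34 ± 0.31 (adjusted p = 1.05e-06), from -0.71, -0.73 and -0.74 to -2.86, -3.04 and -3.31. With 23.8% of probe sets called lower and 29.3% with ranges wholly below, the falls of PR5, PR2 and PR1 were the 5th, 6th and 10th largest of all. The wild type elf18 arrays were below even the wild type water spray arrays for all 3 genes, although those groups differ in route and time.

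The elf18 responses of the genotypes differed by 0.50 ± 0.44 for PR1 (adjusted p = 0.524, 95% confidence interval -0.41 to 1.41), 0.70 ± 0.56 for PR2 (adjusted p = 0.478, 95% confidence interval -0.47 to 1.86) and 0.87 ± 0.31 for PR5 (adjusted p = 0.0587). As deposited none was called, while 9.82% of probe sets were called higher. With the tbf1 water spray arrays left out, which are not part of this comparison and whose omission was chosen after the data were seen, all 3 differences were called, with adjusted p of 0.0133, 0.00452 and 0.00171 and SE of 0.14, 0.17 and 0.19. After quantile normalization the differences were 0.14, -0.30 and 0.38, with the sign turned for PR2, and none was called.

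The index fell by 1.29 with elf18 in wild type and by 1.19 in tbf1. With the index as a covariate the PR1 response to elf18 in wild type was -0.04 ± 0.70 (adjusted p = 0.977), that of PR2 0.59 ± 0.87 (adjusted p = 0.699) and that of PR5 -1.44 ± 0.48 (adjusted p = 0.0433). The slope in that fit was 2.17 ± 0.51 log2 units of PR1 per unit of index with all arrays and 0.24 ± 0.30 without the 3 tbf1 water spray arrays. When these arrays were left out as well, also added after the data were seen, all 6 falls were called, at -2.53, -2.49 and -2.82 in wild type and -2.06, -1.85 and -2.0 in tbf1 for PR1, PR2 and PR5 (adjusted p from 0.000836 to 0.0261). The part of RNA quality in the elf18 results was not tested beyond these fits.

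**Figure D4:**
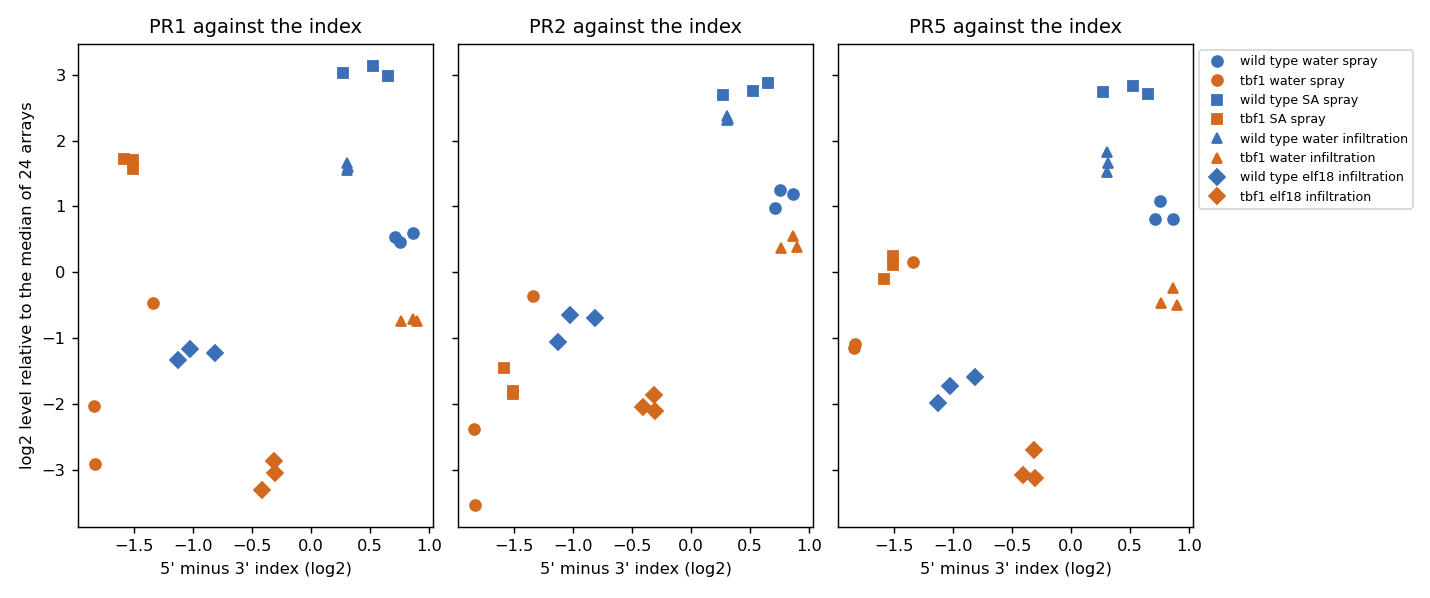
Log2 level of PR1, PR2 and PR5 (vertical axis) against the 5' minus 3' index of RNA quality (horizontal axis, log2), with 1 point for each of the 24 arrays, colour for genotype and marker shape for treatment. Compared within the same treatment, infiltrated tbf1 has the higher index and the lower PR levels, and sprayed tbf1 has the lower index and the lower PR levels.

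All 3 genes were lower in tbf1 than in wild type under each of the 4 treatments, and no tbf1 array reached a wild type array of the same treatment. In unchallenged, water-sprayed leaves PR2 was lower by -3.23 ± 0.40 (tbf1 minus wild type, log2, SE, adjusted p = 2.07e-07), PR1 by -2.34 ± 0.31 (adjusted p = 6.64e-07) and PR5 by -1.59 ± 0.22 (adjusted p = 1.02e-06). These SE understate the scatter of the tbf1 water spray arrays. With only the arrays of these groups fitted, they were 0.62, 0.48 and 0.31 (adjusted p = 0.00201, 0.00302 and 0.00212, limma). After SA the PR2 difference was -4.48 ± 0.40, or 22.3-fold (adjusted p = 6.53e-10), the most negative of the 22746 probe sets as deposited. PR5 differed by -2.68 ± 0.22 (adjusted p = 1.41e-10) and PR1 by -1.39 ± 0.31 (adjusted p = 0.000526). The gap between genotypes after SA was widest for PR2 and narrowest for PR1.

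Many other probe sets were lower in tbf1 too. After water spray 28.8% were called lower and 27.9% had ranges wholly below wild type, and after SA 27% and 28.9%. The balance after water spray, 9085 higher against 6562 lower, turned to 6714 against 7284 when arrays were centred on their median. The median of all probe sets stood at 0.18 in this comparison and at 0.07 after centring. In these spray comparisons the index was lower in tbf1, at a difference of -2.44 after water and of -2.01 after SA. With the index as a covariate the signs turned, to 2.96 ± 1.27, 3.83 ± 1.57 and 2.19 ± 0.88 for PR1, PR2 and PR5 after water and to 2.98 ± 1.05, 1.33 ± 1.31 and 0.43 ± 0.73 after SA, none of them called. After SA and with the tbf1 water spray arrays left out as well, PR2 was called at -3.48 ± 0.72 (adjusted p = 0.0238), while PR5 at -1.72 ± 0.81 and PR1 at -0.90 ± 0.62 were not. The index difference of -2.01 after SA compares with a widest index range of 0.50 within a group.

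Infiltrated leaves gave the same order of genotypes with the index the other way round, higher in tbf1 by 0.54 after water and by 0.64 after elf18. After water infiltration PR1 differed by -2.33 ± 0.31 (adjusted p = 4.18e-06), PR5 by -2.07 ± 0.22 (adjusted p = 1.20e-07) and PR2 by -1.90 ± 0.40 (adjusted p = 0.000952). These were the 11th, 28th and 46th most negative of all probe sets, of which 8.55% were called lower and 18.4% had ranges wholly below. After elf18 the differences were -1.83 ± 0.31 for PR1 (adjusted p = 5.57e-05), -1.21 ± 0.40 for PR2 (adjusted p = 0.0199) and -1.20 ± 0.22 for PR5 (adjusted p = 0.000122), where 16.1% were called lower and 20.7% had ranges wholly below. With the index as a covariate all 6 stayed called, with values of -3.49 to -2.19. The fitted slopes, at 2.17, 2.89 and 1.55 for PR1, PR2 and PR5, are positive and the index is higher in tbf1. That fit could therefore only move the values further down, and the part of RNA quality in these differences was not tested. The PR2 call after elf18 was lost when any 1 of 3 arrays was left out, namely wild type elf18 replicate 1 (adjusted p = 0.0523), replicate 2 (adjusted p = 0.0555) or tbf1 elf18 replicate 2 (adjusted p = 0.0561).

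The water controls of the 2 routes were compared as well. They differ both in route and in time, 2 h after infiltration and 6 h after spraying, and these cannot be told apart. In wild type all 3 genes were higher after water infiltration, PR2 by 1.2 ± 0.40 (log2, SE, adjusted p = 0.0192), PR1 by 1.07 ± 0.31 (adjusted p = 0.0078) and PR5 by 0.77 ± 0.22 (adjusted p = 0.00637), with no overlap between the groups. Of all probe sets 14% were called higher and 19.4% had ranges wholly above. The PR2 call was lost without wild type water spray replicate 3 (adjusted p = 0.0628) or water infiltration replicate 2 (adjusted p = 0.0509).

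In tbf1 PR2 was higher after infiltration by 2.52 ± 0.40 (adjusted p = 5.20e-06) and PR1 by 1.08 ± 0.31 (adjusted p = 0.00347), against 30.4% of probe sets called higher and 29.9% with ranges wholly above. PR5 was not called, at 0.30 ± 0.22 (adjusted p = 0.218). Only PR2 had no overlap between the groups, and with only these groups fitted its SE was 0.62 (adjusted p = 0.00557, limma). The PR1 call was lost without tbf1 water spray replicate 3 (0.52, adjusted p = 0.0558) and after quantile normalization (0.20, adjusted p = 0.422), and PR5 was called without replicate 1 of that group (0.72, adjusted p = 0.000123). The index was 2.51 higher after infiltration in tbf1, and with it as a covariate all 3 signs turned, to -4.36, -4.72 and -3.58 for PR1, PR2 and PR5. The median of all probe sets was -0.22 here and -0.08 with arrays centred on their median.

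Relatives of the 3 proteins were looked at beside them, using 21 CAP, beta-1,3-glucanase, thaumatin-like and basic PR genes, of which 15 had a probe set named for 1 gene. After SA in wild type 1 of the 15 rose and 2 fell, with a median of -0.06 against -0.02 over all probe sets, of which 15.1% were called higher and 16.8% lower. The glucanase gene AT4G16260 rose by 0.47, and the thaumatin family gene AT1G20030 fell by 1.75. In tbf1 1 rose and 2 fell, against 19.6% and 19.3% of all probe sets, AT1G73620 rising by 0.43 and the CAP gene AT4G33720 falling by 0.46. Neither fall in tbf1 was called after quantile normalization. PR-1-LIKE (AT2G19990) was at -0.06 in wild type and -0.08 in tbf1, and neither was called.

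With elf18 in wild type 5 of the 15 relatives rose and 1 fell, with a median of 0.30 against 0.13 over all probe sets. Of all probe sets 31.2% were called higher, so the share of relatives that rose was near the background. AT1G19320, a thaumatin family gene, rose by 1.25 and ATLP-1 (AT1G18250) fell by 0.63, a call lost after quantile normalization (adjusted p = 0.079). In tbf1 5 rose, 0 fell and the median was 0.30 against 0.07, where 18% of all probe sets were called higher. The largest rise was again that of AT1G19320, at 0.93. Between 3 and 8 rose in tbf1, and 4 in wild type, when the arrays were scaled in other ways.

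Between genotypes, 11 of the 15 relatives were higher in tbf1 after water spray and 7 after SA, and none was lower. Of all probe sets 39.9% and 31.1% were called higher, and 28.8% and 27% lower. The medians of the relatives were 0.52 and 0.38, against 0.18 and 0.14 over all probe sets. With arrays centred on their median 9 and 6 were higher, and after quantile normalization 9 and 7. The index was lower in tbf1 in both comparisons, and its part was not tested for the relatives. AT1G73620 was higher by 0.86 after water and AT1G20030 by 1.79 after SA. After water infiltration none of the 15 was called, with a median of -0.05 against -0.01, and after elf18 1 was higher (AT1G20030, 0.37) and 1 lower (the glucanase gene AT1G33220, -0.59). From water spray to water infiltration 1 rose and 2 fell in wild type, and 1 rose and 13 fell in tbf1, where the median was -0.56 against -0.22. Of all probe sets 14% were called higher in wild type and 30.4% in tbf1. Those called lower made up 21.8% in wild type and 45% in tbf1, where the index differed by 2.51.

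**Figure D5:**
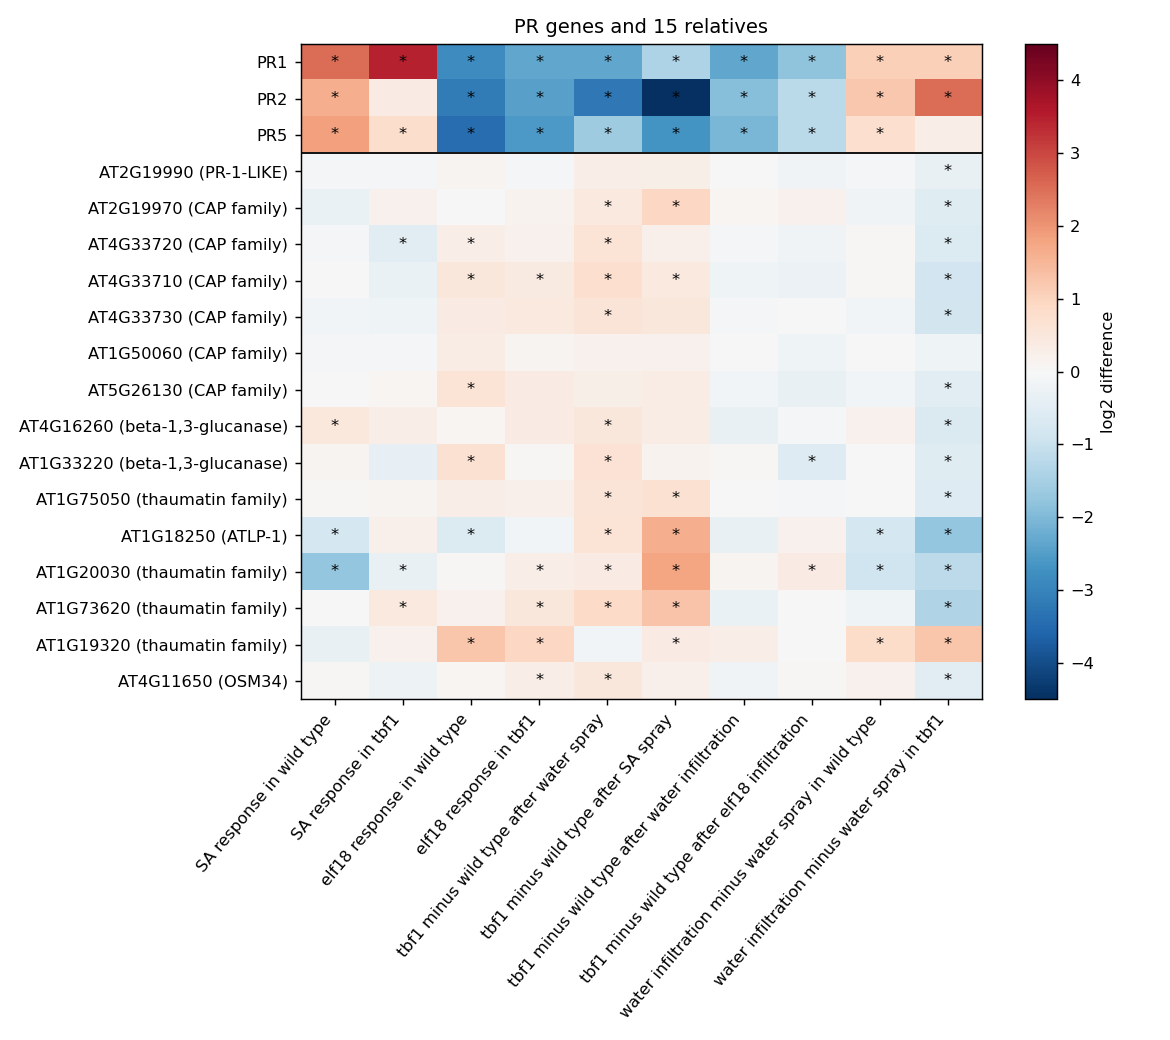
Log2 differences (colour, red for higher and blue for lower) of PR1, PR2, PR5 and 15 relatives (rows) in the 10 comparisons of 2 groups (columns), with an asterisk where the adjusted p was below 0.05. The strongest colours lie in the first 3 rows, whose cells range in size from 0.30 (PR5, water routes in tbf1) to -4.48 (PR2, genotype after SA). Most cells of the relatives are pale, while AT1G20030 is at -1.75 for SA in wild type and at 1.79 for genotype after SA.

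Other genes of SA defence were covered thinly by the annotation, and NPR1, WRKY70, ICS1 and TBF1 are not analysed here. Of SA synthesis and its regulators 2 of 13 were measured. SARD4, an enzyme of pipecolic acid synthesis, rose with SA by 3.01 in wild type and 2.49 in tbf1. SAG101, a partner of EDS1, rose by 1.27 in wild type and was at -0.10 in tbf1, a difference in response of -1.37 (adjusted p = 6.11e-05, limma). Both genes were lower in tbf1 than in wild type after SA, by -1.46 for SARD4 and -1.11 for SAG101. The index differed by -2.01 in that comparison, and its part was not tested for these genes.

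Of 25 genes of SA perception and transcription 3 were measured, and all 3 rose with SA in wild type, where 15.1% of all probe sets were called higher. GRX480, a glutaredoxin that binds TGA factors, rose by 3.86, WRKY53 by 3.03 and NPR2 by 0.72. In tbf1 GRX480 rose by 3.69 and WRKY53 by 2.18, and NPR2 was at -0.08. GRX480 was 2.06 higher in tbf1 than in wild type after water spray and 1.89 higher after SA, but lower in tbf1 after water infiltration (-1.99, adjusted p = 1.27e-12) and after elf18 (-1.22, adjusted p = 4.13e-09). The index difference changed sign between these comparisons too, at -2.44 and -2.01 for the sprays and 0.54 and 0.64 for the infiltrations. Its part was not tested for GRX480. After elf18 GRX480 rose by 1.14 in tbf1 and by 0.37 in wild type, the latter not called after quantile normalization (0.09, adjusted p = 0.437).

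Of 7 genes of SA inactivation 3 were measured. UGT76B1, which glucosylates SA, rose by 6.24 in SA-treated wild type and by 3.27 in SA-treated tbf1, a difference of -2.97, and was at -0.64 and -0.28 after elf18, neither called. BSMT1, an SA methyltransferase, rose by 0.84 in tbf1 and was at 0.20 in wild type. Of 12 markers of systemic acquired resistance 4 were measured, of which 3 rose and 1 fell with SA in each genotype. An exception was that AT3G22060 changed sign in tbf1 after quantile normalization (0.56 as deposited, -0.14). Over the whole array the background for SA in wild type was 15.1% for rises and 16.8% for falls. In tbf1 it was 19.6% for rises and 19.3% for falls. The lipid transfer protein genes AT5G55450 and AT5G48490 were the extremes of the 4 markers. The first rose by 2.60 in wild type and 2.5 in tbf1, and the second was at -4.43 and -1.25. With elf18 in wild type 2 rose, AT3G22060 by 0.87 and AT5G48490 by 0.40, while AT5G55450 fell by 2.64 and the kinase gene AT1G35710 fell by 1.94. In tbf1 AT5G48490 rose by 1.74, AT5G55450 fell by 1.35 and AT1G35710 fell by 0.89. The background for elf18 was 31.2% for rises and 26.9% for falls in wild type. It was 18% for rises and 23.8% for falls in tbf1.

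Jasmonate and ethylene defence, which often runs counter to SA, had 3 of 15 genes measured, and none was called after SA in wild type. Of all probe sets 15.1% were called higher there and 16.8% lower. With SA in tbf1 2 rose, PDF1.2 by 1.01 and THI2.1 by 0.45, where 19.6% of all probe sets were called higher. With elf18 PDF1.2 rose by 2.12 in wild type and 4.55 in tbf1 and PDF1.2B by 2.46 and 4.19, where PR1, PR2 and PR5 fell. After water infiltration 2 of the 3 genes were lower in tbf1 than in wild type, with a median of -2.47, against 8.55% of all probe sets. After elf18 PDF1.2 was lower in tbf1 by -0.53 and PDF1.2B by -0.74, neither called after quantile normalization. The probe sets of PDF1.2 and PDF1.2B may share signal, as the genes are close relatives.

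ER folding and secretion had 7 of 19 genes measured. With SA all 7 rose in wild type (median 1.72 against -0.02 over all probe sets) and 5 in tbf1 (median 0.78 against -0.08), led in wild type by the co-chaperone gene ERDJ3B at 2.44 and in tbf1 by the transcription factor gene BZIP60 at 1.15. For SA the background of rises over the whole array was 15.1% in wild type and 19.6% in tbf1. With elf18 1 of the 7 rose and 5 fell in wild type, with BZIP60 at 0.85 and the calnexin gene AT5G07340 at -0.94. The background there was 31.2% for rises and 26.9% for falls. With elf18 in tbf1 2 of the 7 rose and 2 fell, against a background of 18% for rises and 23.8% for falls. After SA 6 were lower and 1 was higher in tbf1 than in wild type, with a median of -1.52, where 27% of all probe sets were called lower and the index differed by -2.01. The part of the index was not tested for this list. The higher one, BZIP60 at 0.29, was not called under either other scaling.

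Of 10 markers of leaf cells and other tissues 4 were measured. None was called after SA in wild type. After elf18 in wild type the mesophyll gene RCA fell by 1.2, while the meristem gene CLV3 and the root peroxidase gene AT5G17820 rose by 0.86 and 0.67. The index differed by -1.29 in that comparison, and its part was not tested for these genes. After water spray RCA was lower by -0.97 in tbf1, CLV3 higher by 0.80 and AT5G17820 higher by 0.87, in a comparison in which the index differed by -2.44. The guard cell gene FAMA was at 0.05 there.

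The genes whose pattern was most like each PR gene were named by Pearson correlation over the 24 arrays, which share only 8 groups, among probe sets with 1 gene name. For PR1 they were AT5G55450 (r = 0.97), AT2G32160 (0.93), the chitinase family gene CHI (AT2G43570, 0.92), AT5G59670 (0.91) and the glyoxalase family gene GLX2-4 (0.90). AT5G55450 had the highest correlation of all probe sets with PR1. CHI (0.96), AT2G32160 (0.96) and AT5G55450 (0.93) were also among the 5 most like PR5, with AT4G10050 (0.94) and AT4G03200 (0.92). CHI rose with SA by 1.78 in wild type and 1.29 in tbf1 and after elf18 was at -3.28 and -1.84, both called. All genes most like a PR gene were chosen on these same arrays. Changes they share with that PR gene thus come with the choice and are no separate support.

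The 5 genes most like PR2 were RING1 (AT5G10380, 0.94), a ubiquitin ligase gene linked to cell death, AT3G05070 (0.94), AT1G45000 (0.92), AT1G27100 (0.92) and AILP1 (0.92). RING1 rose with SA by 1.13 in wild type, was at 0.01 in tbf1 and differed by -3.54 between tbf1 and wild type after SA. The index differed by -2.01 in the last comparison, and its part was not tested for RING1. Of the other 4, AT1G27100 rose with SA by 0.57 in wild type and 0.56 in tbf1, and AT3G05070, AT1G45000 and AILP1 were not called in either genotype, at 0.16, 0.26 and 0.14 in wild type, where PR2 rose by 1.64. Among the 3 genes themselves PR1 and PR5 correlated at 0.92, PR2 and PR5 at 0.83 and PR1 and PR2 at 0.74.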

How the data were processed

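Total RNA of 24 leaf samples was amplified, labelled with biotin and hybridised to 1-channel Affymetrix ATH1 arrays, per the labels' protocols. The authors deposited log-scale values, taken here as log2, and the submitters' processing notes name RMA, which summarises the probes of a set. Its version and the log base are not given in the sources used here, and base 2 was assumed because RMA works on that scale. In the deposited table every probe set was centred on its median over the 24 arrays, so brightness above background, and any filter on dim probe sets, could not be used. Arrays allow no depth to be given, and their number limits the precision.

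The 64 control probe sets were left out and 22746 tested. All 24 arrays were fitted with 1 mean per group (16 residual degrees of freedom) by lmFit, contrasts.fit and eBayes in limma 3.58.1 under R 4.3.3, with Benjamini-Hochberg adjustment across all probe sets in each of 12 comparisons. Calls were made at an adjusted p below 0.05. Of 122 entries in 8 gene lists 41 had a probe set with 1 gene name, matched through Entrez identifiers to RefSeq (assembly TAIR10.1). No coordinates are given, as no build is named. The genes and lists were chosen with earlier results of these data known. Besides PR1, PR2 and PR5, the text names the 5 genes most like each, the called list member with the largest rise or fall, and GRX480, UGT76B1, NPR1, WRKY70, ICS1 and TBF1 where measured. Members named beyond this rule were chosen after their values were seen. Alternatives were quantile normalization, arrays centred on their median, only the arrays compared, a replicate block, the index as covariate, robust eBayes, array weights, leaving out each array and, added later, leaving out the tbf1 water spray group.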

Additional observations from a re-analysis of the deposited data

Results flagged for a closer look

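The SA response of PR5 differed between the genotypes by a test of the difference itself, at -1.09 ± 0.31 (tbf1 minus wild type, log2, SE, adjusted p = 0.00899, limma). The rise was 1.86 in wild type against 0.77 in tbf1, with 3 arrays in each of the 4 groups. With only these groups fitted the SE was 0.36 (adjusted p = 0.0364, limma). The difference stayed called without any 1 of the 12 arrays, at -1.31 to -0.66, and was -0.66 without tbf1 water spray replicate 1.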

How the results depend on the processing

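Of 36 values for the 3 genes, none changed its call or sign with arrays centred on their median or with robust eBayes. After quantile normalization the SA response in tbf1 was -0.074 for PR2 and 0.44 for PR5, the genotype difference in response was -1.79 (SA) and -0.30 (elf18) for PR2, and water infiltration minus spray in tbf1 was 0.20 for PR1 and -0.13 for PR5. Probe sets called for SA in tbf1 numbered 5843 after quantile normalization and 5209 with only the arrays compared, against 8849. In the latter fit the PR1 water route difference in tbf1 (1.08) and the PR5 SA response in tbf1 (0.77) lost their calls, and the elf18 differences in response (0.50, 0.70 and 0.87) gained theirs, as they did with the tbf1 water spray arrays left out. Array weights brought calls to the SA differences in response of PR1 (1.11) and PR2 (-1.09) and the elf18 one of PR5 (0.88), and 7277 calls against 4679 for genotype after water infiltration.

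With the index as covariate the elf18 responses were -0.042 (PR1) and 0.59 (PR2) in wild type and 0.23, 0.98 and -0.73 (PR1, PR2, PR5) in tbf1. Genotype differences were 2.96, 3.83 and 2.19 after water spray and 2.98, 1.33 and 0.43 after SA, and water infiltration minus spray in tbf1 was -4.36, -4.72 and -3.58. The PR2 SA response in tbf1 was -0.0035, and calls were gained for the PR2 SA difference (-2.50) and the PR5 elf18 difference (0.70). Probe sets called numbered 2317 and 3774 for elf18 in tbf1 and wild type (9491 and 13221 as deposited), and 217, 1367, 2715 and 4197 for genotype after water spray, SA, water infiltration and elf18 (15647, 13208, 4679 and 8383), and 1503 for the water routes in tbf1 (17147). With the tbf1 water spray arrays left out as well, the elf18 differences were 0.47, 0.64 and 0.82 and called, the genotype differences after SA were -0.90 (PR1) and -1.72 (PR5) and not called, and the counts were 849 and 2057 for elf18 and 302, 1662 and 2852 for genotype after SA, water infiltration and elf18. The cause was not tested.

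Leaving out 1 array gave 0.40 to 1.62 and -1.98 to -0.39 for the SA differences in response of PR1 and PR2, -0.33 to 1.25 and 0.55 to 1.2 for the SA responses of PR2 and PR5 in tbf1, -1.33 to -1.13 for PR2 between genotypes after elf18, 0.52 to 1.75 and 0.070 to 0.72 for the water routes in tbf1 (PR1, PR5) and 1.12 to 1.25 for PR2 in wild type. The value of -0.33 came without tbf1 water spray replicate 3. The replicate block changed 1 call, PR5 in the elf18 difference (0.87, adjusted p = 0.0499). The replicate numbers were not treated as pairs, since only 8 of 30 correlations of deviations passed 0.1 (-0.16 to 0.28). Over the comparisons of 2 groups 60 matches were looked at, in which each array recurs, so they are not independent. In 30 of them an array correlated best with its own number, where an even spread over the numbers would give 20. This is a hint of pairing from the data and not from the design. Over group means 3, 1 and 3 of the 5 genes most like PR1, PR2 and PR5 stayed among the 5.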
